A study of Mus musculus with 10 samples.

Results

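The Hox genes of the 4 mouse clusters were examined in 6 lists of ChIP-seq peaks from e14.5 fetal liver (FL) erythroid cells. The members were 38 protein-coding Hox genes, taken by name, of 22238 protein-coding genes in the annotation. HoxA on chromosome 6 held 10 of them, HoxB on chromosome 11 held 10, HoxC on chromosome 15 held 9 and HoxD on chromosome 2 held 9. A gene counted as having a peak when an interval of the list reached within 5 kb of an annotated transcription start site (TSS) of that gene, and each cluster was also taken whole, from its first to its last member gene. No cut on their peaks was used to choose the genes, but the choice was made with earlier results of these data known.

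The study compared wild-type (WT, Pcl2+/+) and Mtf2-null (Pcl2-/-) embryos, Pcl2 being another name of Mtf2, at e14.5 on a C57Bl/6 background. The mutation is constitutive, carried by every cell of the embryo, and comes from gene-targeted C57Bl/6 ES cells of EUCOMM that were aggregated with CD1 blastocysts. FL cells were sorted into a CD71+Ter119-/lo fraction of pro-erythroblasts and a CD71+Ter119+ fraction of erythroblasts, the latter written CD71+Ter119high in the sorting protocol. H3K27me3 was immunoprecipitated in both fractions of both genotypes, and Mtf2 in both WT fractions. Each condition had 500000 cells per sample, 1% formaldehyde and an IgG control, and is represented by 1 library. The methods mention replicates of 2 and do not say whether they were pooled, so no spread between replicates could be computed, no test was run, and every contrast below is one between lists. The opening line of the series design names H3K4me3, whereas its later lines and the sample labels name H3K27me3. Peak lists measure no transcripts, so the sorted fractions could not be checked against marker genes.

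Hox genes encode homeodomain transcription factors that give cells their position along the body axis. They lie in clusters in which the order of the genes follows the order of their expression domains, from the anterior paralogue groups at one end to the posterior groups at the other. Outside their domains the clusters are classic targets of Polycomb repressive complex 2 (PRC2), whose Ezh subunit trimethylates lysine 27 of histone H3. Mtf2 is an accessory subunit that binds unmethylated CpG-rich DNA and brings PRC2 to CpG islands. In blood, several Hox genes, among them Hoxa9, Hoxa10 and Hoxb4, are active in stem and progenitor cells and are switched off as cells mature.

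The sequences under the highest-scoring WT CD71+Ter119+ H3K27me3 peak of each cluster show how CpG density differed among the strongest peaks. Each is the 150 bases of mm9, plus strand, that lie nearest to the summit inside the peak and outside non-coding exon sequence, and the capitals mark CpG dinucleotides.
Hoxd8 peak, chr2:74543605-74543754: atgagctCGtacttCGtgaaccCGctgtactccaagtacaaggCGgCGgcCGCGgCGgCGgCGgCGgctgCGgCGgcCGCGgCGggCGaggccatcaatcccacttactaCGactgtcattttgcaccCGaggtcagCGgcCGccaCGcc
Hoxa3 peak, chr6:52125681-52125830: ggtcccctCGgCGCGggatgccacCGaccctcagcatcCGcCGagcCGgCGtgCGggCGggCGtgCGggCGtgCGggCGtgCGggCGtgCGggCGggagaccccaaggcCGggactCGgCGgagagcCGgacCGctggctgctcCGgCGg
Hoxb2 peak, chr11:96214224-96214373: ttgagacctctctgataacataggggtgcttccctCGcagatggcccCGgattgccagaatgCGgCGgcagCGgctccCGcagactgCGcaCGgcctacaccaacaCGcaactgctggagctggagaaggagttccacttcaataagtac
Hoxc10 peak, chr15:102798199-102798348: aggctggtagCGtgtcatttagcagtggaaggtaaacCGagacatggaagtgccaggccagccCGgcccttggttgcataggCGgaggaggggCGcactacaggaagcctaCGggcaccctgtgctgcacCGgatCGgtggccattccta
The windows of Hoxa3 and Hoxd8 held 26 and 22 CpGs, and those of Hoxb2 and Hoxc10 held 9 and 8. Their GC content was 81.3%, 68.7%, 58.7% and 61.3% in the same order. The Hoxd8 and Hoxb2 windows lie in or reach into coding exons, and the Hoxa3 and Hoxc10 windows lie in introns.

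The lists differed in depth and in length before any Hox gene was considered. Between 15669899 and 67169672 unique tags entered each ChIP library, and the lists held between 1407 and 28918 peaks. The GC content and CpG ratio of a peak were read over 1 kb centred on its summit, whatever the length of the peak. The WT CD71+Ter119+ H3K27me3 list stood apart in base composition: 47.6% of its 4490 peaks were island-like (GC of at least 50% and an observed-to-expected CpG ratio of at least 0.6), against 0% to 4.35% in the other 5 lists. Its part in the results below was not tested. A score is −10 log10 of a peak's p, and the false discovery rate (FDR) of a peak is the peak caller's own estimate from exchanging ChIP and IgG.

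H3K27me3 marked most Hox genes in WT CD71+Ter119+ erythroblasts. In all, 30 of 38 members (78.9%) had a peak within 5 kb, beside 11.5% of all protein-coding genes. The TSS itself lay inside a peak for 15 members (39.5%), beside 7.94% of all genes. Across the clusters 37 peaks fell in 485 kb, or 7.63 per 100 kb, whereas the list as a whole held 0.166 per 100 kb of the effective genome given in its header. These 37 peaks covered 36.1 kb (7.44% of the clusters) and held 1399 tags, with an exact 95% Poisson interval of 1327 to 1474 that covers counting error only.

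The peaks were many but individually modest. Their median length was 909 bp, against 1057 bp over the whole list, and they held a median of 26 tags (21 to 139) against 36. A score of at least 100 was reached by 7 of the 37 (18.9%), beside 29.5% of the list. With such peaks alone 7 members kept a peak (18.4%), beside 5.55% of all genes, and these were Hoxa3, Hoxa13, Hoxd1, Hoxd8, Hoxd9, Hoxd11 and Hoxd13. An FDR of 5% or less was given to 6 of the 37 peaks, and the median FDR was 21.2% (2.05% to 33.1%).

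**Figure D1:**
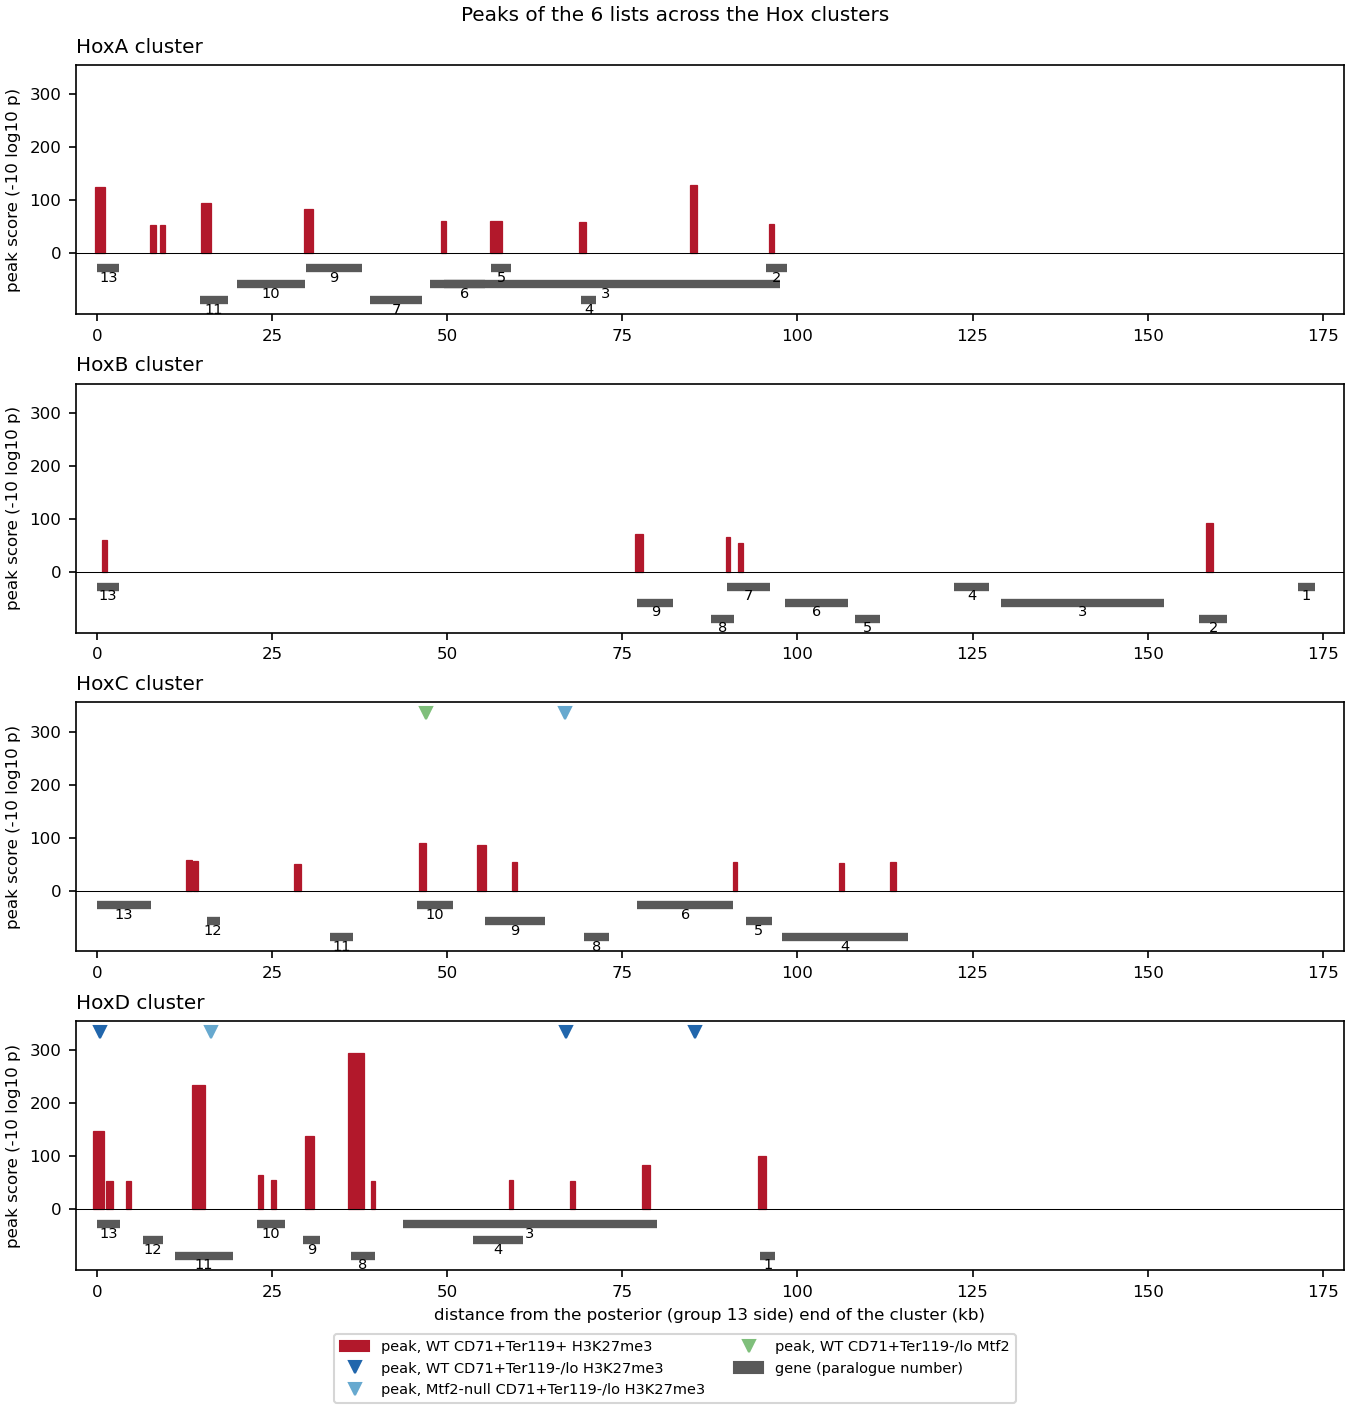
Peaks across the 4 Hox clusters, with distance from the posterior end in kb on the horizontal axis and peak score on the vertical axis. Red bars are the 37 WT CD71+Ter119+ H3K27me3 peaks at their true width, grey bars are genes with their paralogue number, and triangles mark, at a fixed height, the 6 peaks of other lists; the Mtf2-null CD71+Ter119+ H3K27me3 and WT CD71+Ter119+ Mtf2 lists had none. HoxD carries the tallest bars and HoxB has 2 long stretches without a bar.

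HoxD was the most densely marked cluster and HoxB the least. In HoxD (chr2:74506367-74603200, 96.8 kb) 13 peaks covered 13.7 kb, or 14.2% of the cluster, and held 612 tags (564 to 662), at 42.9 tags per kb of peak. All 9 HoxD members had a peak. In HoxA (chr6:52112350-52210874, 98.5 kb) 10 peaks covered 10.9 kb (11.1%) with 405 tags (367 to 446), at 35.9 tags per kb, and 9 of 10 members had a peak. HoxC (chr15:102751534-102867274, 116 kb) had 9 peaks over 7.30 kb (6.31%) with 240 tags (211 to 272), at 32.9 per kb, and 7 of 9 members with a peak. HoxB (chr11:96055630-96229570, 174 kb) had 5 peaks over 4.14 kb (2.38%) with 142 tags (119.6 to 167), at 34.3 per kb, and 5 of 10 members with a peak. The 4 intervals of tag sums did not overlap one another, but they cover counting error only and are no test between clusters. The sums follow how many peaks were called in each cluster. Tags per kb of peak differed less than the sums: HoxA, HoxB and HoxC reached 0.838, 0.800 and 0.766 of the HoxD value per kb, against 0.662, 0.232 and 0.392 of its tag sum.

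**Figure D2:**
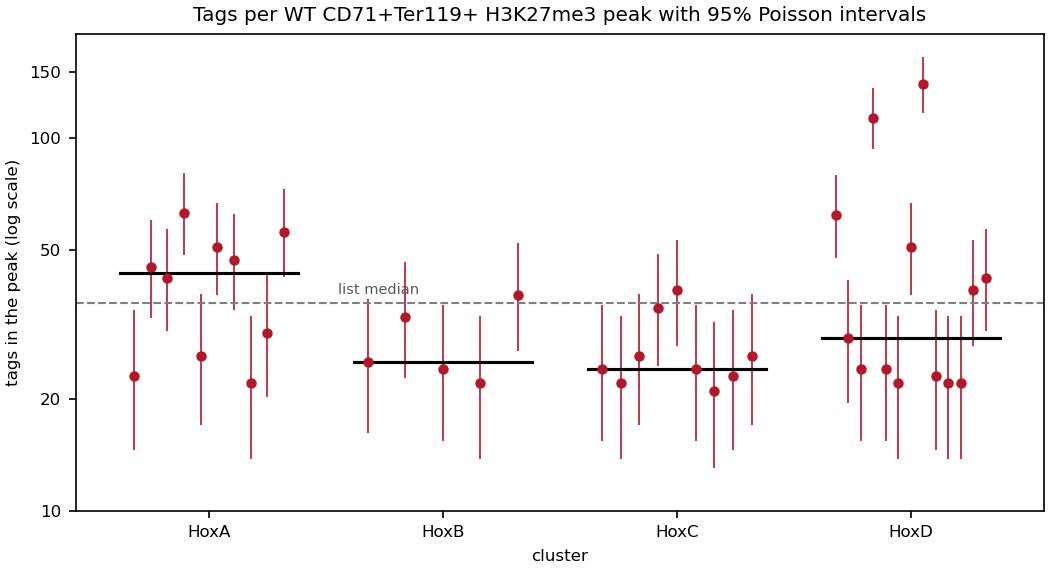
Tags in each of the 37 WT CD71+Ter119+ H3K27me3 peaks, on a log scale, by cluster. Points are peaks in order of position, vertical lines are exact 95% Poisson intervals, black bars are cluster medians and the dashed line is the median of the whole list (36 tags). The Hoxd11 and Hoxd8 peaks, with 113 and 139 tags, lie above every other point.

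In HoxD the strongest marks sat on Hoxd8 and Hoxd11. Hoxd8, a central gene of the trunk, had the longest and highest-scoring Hox peak (chr2:74542260-74544545, 2286 bp). It held 139 tags (117 to 164) at 11.6-fold over IgG with a score of 295, ranked 195 of 4490, and its summit was 0.145 kb downstream of the TSS, in a non-coding exon. Hoxd11, which patterns the forearm and the kidney, had a peak of 1904 bp (chr2:74519919-74521822) with 113 tags (93.1 to 136) and a score of 235 over its coding exon. These were also the densest Hox peaks, at 60.8 and 59.3 tags per kb, against a range of 28.6 to 41.1 over the peaks whose summits lay farther than 1 kb from a TSS.

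Hoxd13, the most posterior gene of the cluster and a regulator of digits, had 62 tags over 1569 bp with a score of 147 at its TSS. A further 2 peaks with 29 and 24 tags lay within its window and that of its neighbour Hoxd12. Hoxd9 had 51 tags over 1297 bp with a score of 137, although its TSS lay 0.275 kb outside the peak. At the anterior end Hoxd1 had 42 tags and a score of 100.3 over its coding exon and TSS. Hoxd3 had 4 peaks in its windows, which its several TSS spread over the anterior part of HoxD, and the one over a TSS held 22 tags with a score of 53.3. The HoxD peaks thus ranged from 22 to 139 tags with a median of 29.

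A pair of peaks just beyond the posterior end of HoxD, within 10 kb of Hoxd13, held 39 and 44 tags. They lie near Evx2, the homeobox gene next to HoxD, which had 3 peaks in its own 5 kb window with 68, 39 and 44 tags. With the clusters extended by 10 kb on either side HoxD had 15 peaks and 695 tags, while the peak counts of HoxA, HoxB and HoxC stayed at 10, 5 and 9.

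HoxA peaks were spread along the cluster but covered 11.1% of it, and the longest stretch without a peak was 18.2 kb. Hoxa3, which shapes the pharyngeal arches and thymus, had the highest score (129) from an intronic peak of 1096 bp (chr6:52125171-52126266) with 45 tags at 15.7-fold over IgG, 3.11 kb upstream of the nearest annotated TSS. Hoxa13, a regulator of limb and genital development, had 56 tags and a score of 125 over its coding exon (chr6:52209691-52211202). Hoxa5, needed in the lung and the cervical vertebrae, had the longest HoxA peak, with 1610 bp and 63 tags. Its score was only 60.5, at 5.78-fold over IgG. The number of tags and the score therefore ranked the HoxA peaks differently.

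The other HoxA members with a covered TSS were Hoxa4, Hoxa6, Hoxa9 and Hoxa11. Hoxa4 had 42 tags and a score of 59.2. Hoxa6 had 26 tags and a score of 61.6. Over 1 kb centred on its summit GC was 49.7% and the CpG ratio 0.277, the lowest ratio among the 15 peaks that cover a TSS. Hoxa9, a transcription factor of blood progenitors and a leukaemia gene, had 51 tags and a score of 83.6 over 1406 bp, and Hoxa11 had 47 tags and a score of 94.8 over 1449 bp. Hoxa10, the other HoxA gene best known in blood, had no peak of its own and counted through the Hoxa9 and Hoxa11 peaks, which held 98 tags together. Hoxa7 was the one HoxA member without a peak, its TSS lying 5.66 kb from the nearest.

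HoxC peaks were narrow and even, with 21 to 39 tags and scores between 50.6 and 89.5. Hoxc10, a lumbar gene, had the highest score (89.5) from an intronic peak of 967 bp with 35 tags (chr15:102797566-102798532). Hoxc9, which specifies the thoracic level of the spinal cord, had the longest peak, with 1192 bp, 39 tags and a score of 85.9, and its summit lay 0.439 kb upstream of a TSS. Hoxc4 had 26 tags and a score of 54.0 over its coding exon. None of the 9 HoxC peaks reached a score of 100. Hoxc8 and Hoxc13, the latter a gene of hair and nail, had no peak and lay 9.50 and 12.8 kb from the nearest.

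In HoxB both posterior members, 2 of 5 central members (Hoxb7 and Hoxb8) and 1 of 3 anterior members (Hoxb2) had a peak. Hoxb2, a hindbrain gene, had the highest score and the greatest length, with 92.5 and 1081 bp, in a coding exon 1.61 kb downstream of a TSS (chr11:96213949-96215029, 38 tags). Hoxb9 had 33 tags and a score of 72.3 over its TSS at 14.6-fold over IgG. Hoxb7 had 24 tags and a score of 65.9 over its TSS, and Hoxb8 counted through the Hoxb7 peaks. Hoxb13, a gene of the tail and prostate, had an intronic peak of 25 tags. Between Hoxb13 and Hoxb9 a stretch of 75.4 kb held no peak and no TSS of a member. Another stretch of 66.1 kb, up to the peak inside Hoxb2, held every TSS of Hoxb2, Hoxb3, Hoxb4, Hoxb5 and Hoxb6 and no peak. Hoxb4, the stem cell gene, lay farthest from a peak of all members, at 30.2 kb, and Hoxb1, Hoxb3, Hoxb5 and Hoxb6 lay 12.0, 8.87, 16.1 and 5.99 kb away.

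Summits that lay near a start site were mostly downstream of it. Of the 37 summits, 18 lay within 1 kb of a member TSS, 16 of them downstream and 2 upstream, and 19 lay farther away. These counts were not set beside those of the whole list. Summits fell in coding exons in 15 cases, in non-coding exons in 6, in introns in 8 and between member genes in 8. Peaks with a summit within 1 kb had a median of 40.5 tags over 1100 bp, and the 19 others had 24 tags over 738 bp. Neighbouring genes shared peaks, since 12 of the 37 lay within 5 kb of more than 1 member. When each peak counted only for the member with the nearest TSS, 27 members had a peak in place of 30. Members and peaks are therefore not independent of one another.

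The order of the paralogue groups by share depended on HoxB and on the peak threshold. With all peaks, 15 of 16 posterior members (groups 9 to 13, 93.8%) had a peak, against 10 of 15 central members (groups 4 to 8, 66.7%) and 5 of 7 anterior members (groups 1 to 3, 71.4%). HoxB accounted for 5 of the 7 anterior and central members without a peak. Outside HoxB the counts were 13 of 14 posterior, 8 of 10 central and 4 of 4 anterior members. With peaks of a score of at least 100 alone, 28.6% of anterior, 6.67% of central and 25% of posterior members had a peak, so anterior members then came first. With HoxB included, posterior peaks were more numerous per gene, at 1.25 per member (20 peaks), than central peaks at 0.733 (11 peaks) and anterior peaks at 0.857 (6 peaks). In HoxB only 1 of 3 anterior and 2 of 5 central members had a peak, against both posterior members. The peaks per member were not recomputed without HoxB, and they are not shown to be a trend along the axis.

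The strength of the mark per kb did not follow the axis. Tags summed to 759 over posterior, 431 over central and 209 over anterior peaks, and divided by peak length they came to 36.7, 40.9 and 36.2 per kb. The central sum included the 139 tags of Hoxd8. Median tags per peak were 29.5, 24 and 38.5 in the same order. Among single groups, all members of groups 2, 9, 10, 11 and 12 had a peak, with 2, 4, 3, 3 and 2 members. In group 13 Hoxc13 had none. The median CpG ratio of the promoters was 0.428 at anterior, 0.535 at central and 0.663 at posterior members, a description over 7, 15 and 16 genes.

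**Figure D3:**
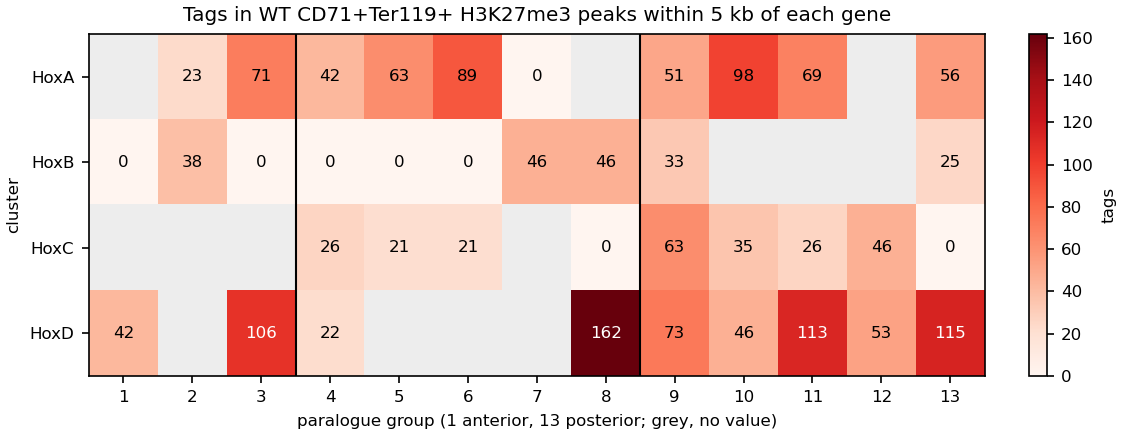
Tags in WT CD71+Ter119+ H3K27me3 peaks within 5 kb of each Hox gene, by cluster (rows) and paralogue group (columns, anterior to the left). Lines separate groups 1 to 3, 4 to 8 and 9 to 13, grey squares hold no value, and a peak near 2 genes is counted for both. Hoxd8 has the most tags (162), and 5 of the 8 zeros are in HoxB.

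In Mtf2-null CD71+Ter119+ cells no Hox gene had an H3K27me3 peak. The 30 members marked in WT all lacked one, so 78.9% of the members were marked in WT alone, beside 11.4% of all genes. Of all 2567 genes marked in WT, 2535 had no Mtf2-null peak either. The absence was therefore not particular to Hox genes, and the 2 shares mainly repeat those of WT marking. Among all genes 1.5% were listed in Mtf2-null alone and 0.144% in both genotypes, and of the members 0 fell in either class. The Mtf2-null list placed 1.64% of all genes near a peak, so few genes of any kind were marked in it. None of the 4 clusters held an Mtf2-null peak, also when extended by 10 kb, and the nearest lay 280 kb from HoxD, 351 kb from HoxA, 376 kb from HoxC and 940 kb from HoxB. For Hoxd8 the entries were 139 tags in the WT list and no peak in the Mtf2-null list, for Hoxd11 113 tags and no peak, and for Hoxa3 45 tags and no peak. Of the 37 WT peaks 0 were overlapped, and of all 4490 WT peaks 0.624% were.

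**Figure D4:**
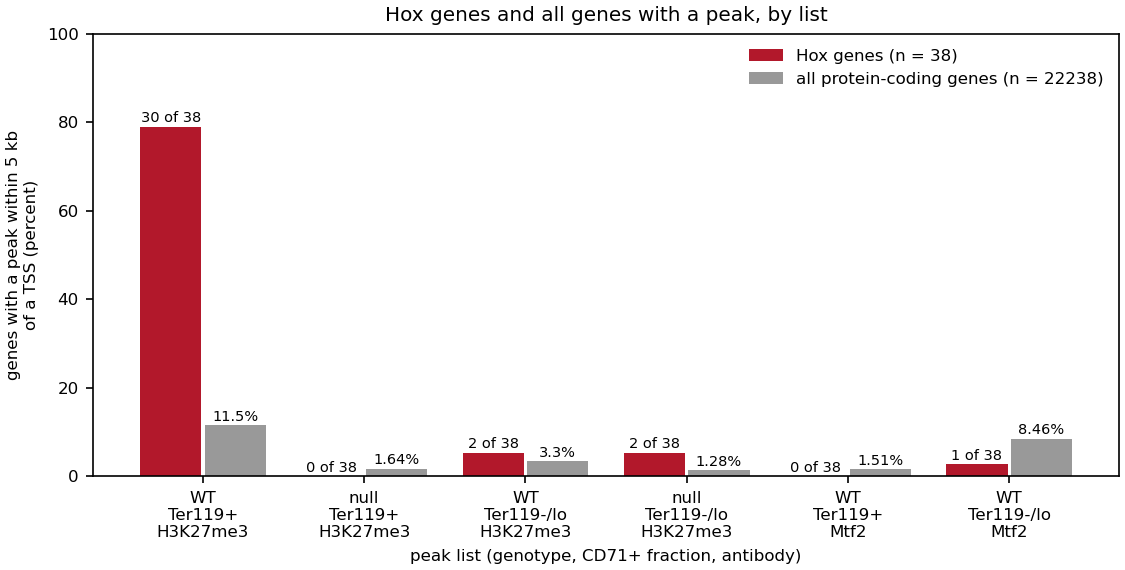
Percent of the 38 Hox genes (red) and of all 22238 protein-coding genes (grey) marked within 5 kb of a TSS in each of the 6 lists, with 1 library per list and no error bars. Hox genes stand at 30 of 38 in WT CD71+Ter119+ H3K27me3 and at 0 to 2 of 38 in the others.

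The Mtf2-null library was the deeper of the pair, with 2.23 times the unique tags of the WT library. Multiplied by that ratio, the 37 WT peaks would hold 46.9 to 311 tags, and all 37 would be at or above 35 tags, the smallest number in any Mtf2-null peak, while 13 would reach the median of that list, 87 tags. The tags that the Mtf2-null library placed in these intervals are not part of the lists, so the absence of a peak is not a level of 0. In base composition the lists differed too: none of the 5791 Mtf2-null peaks was island-like, and their median GC was 38.6% against 57.2% in WT. The part of composition in the Hox result was not tested, and neither were the IgG libraries, which differed between the genotypes with 20646036 unique tags in Mtf2-null and 12345800 in WT.

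In CD71+Ter119-/lo pro-erythroblasts few Hox genes were marked in either genotype. The WT list had a peak near 2 members, Hoxd3 and Hoxd13 (5.26%, beside 3.3% of all genes), and the Mtf2-null list near 2 others, Hoxc8 and Hoxd11 (5.26%, beside 1.28%). Marking in WT alone was thus found for 2 members, beside 3.12% of all genes, in Mtf2-null alone for 2 members, beside 1.1%, and in both genotypes for 0 members, beside 0.175%. All 5 peaks were small. These shares are near the background and are no result about Hox genes.

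The Hoxd13 peak was the only one that both WT fractions shared. In CD71+Ter119-/lo cells it spanned chr2:74506470-74507153 (684 bp) with 17 tags (9.90 to 27.2) and a score of 55.1 at 7.31-fold over IgG, wholly within the CD71+Ter119+ peak of 62 tags. The Hoxd3 peak held 16 tags with a score of 51.6 in an intron, and another peak with 17 tags lay between Hoxd3 and Hoxd1, 7.92 kb from a TSS of Hoxd3. Their FDR was at least 11.6%. The DNA at the Hoxd13 summit is shown because it is the one place where the mark was listed in both WT fractions, with 25 CpGs in 150 bases in capitals, within a coding exon.
Hoxd13 peak, CD71+Ter119-/lo, chr2:74506470-74506619: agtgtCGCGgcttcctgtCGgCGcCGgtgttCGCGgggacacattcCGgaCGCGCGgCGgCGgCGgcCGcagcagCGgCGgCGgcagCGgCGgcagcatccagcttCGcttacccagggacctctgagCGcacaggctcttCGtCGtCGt
Of the 37 CD71+Ter119+ peaks in the clusters, 2.70% were overlapped by the CD71+Ter119-/lo list, against 6.30% of all 4490 peaks.

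The number of marked Hox genes differed by 28 between the WT fractions, and depth moved with it. A peak in CD71+Ter119+ and none in CD71+Ter119-/lo was listed for 28 members (73.7%), beside 9.87% of all genes, and a peak in both for 2, beside 1.68%. The CD71+Ter119-/lo library held 0.630 times the unique tags. Scaled to its depth the 37 peaks would hold 13.2 to 87.6 tags, and 21 of them would be at or above 16 tags, the smallest number in a listed peak, while 15 would reach the median of that list, 22 tags. The 16 others would fall below that number, which is the lowest in a listed peak and not a limit of detection. The part of depth in the difference was not tested. Hoxd8 and Hoxd11, with the most tags, were listed in WT CD71+Ter119+ and not in WT CD71+Ter119-/lo cells.

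The Mtf2-null peaks of the CD71+Ter119-/lo fraction lay away from the WT peaks. One, of 682 bp with 27 tags (17.8 to 39.3) and a score of 50.3, lay 2.81 kb upstream of Hoxc8 (chr15:102818018-102818699). Hoxc8, a thoracic gene, had no peak in any other list. The other, of 697 bp with 25 tags and a score of 50.8, lay in Hoxd11, 2.40 kb downstream of a TSS (chr2:74522357-74523053). It did not overlap the WT CD71+Ter119+ peak on Hoxd11. Both were low in CpG, with ratios of 0.495 and 0.191, but not for that list, whose median was 0.184. Both had an FDR of 100%, as had every peak of that list. The window nearest the summit of the Hoxc8 peak held 7 CpGs and is shown against the CpG-rich windows above.
Hoxc8 upstream peak, Mtf2-null, chr15:102818169-102818318: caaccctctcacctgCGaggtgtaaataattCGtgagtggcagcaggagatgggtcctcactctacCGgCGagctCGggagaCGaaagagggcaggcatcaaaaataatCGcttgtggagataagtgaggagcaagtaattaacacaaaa

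Mtf2 peaks were listed near 1 of the 38 Hox genes over both fractions, and neither share stands far from that of all genes. The CD71+Ter119+ Mtf2 list had no peak near any of the 38 members (beside 1.51% of all genes) and none inside a cluster, and its nearest peak was 88.9 kb from HoxA. The CD71+Ter119-/lo Mtf2 list, the longest of the 6, had a peak near 1 member, Hoxc10 (2.63%, beside 8.46% of all genes). That peak (chr15:102798134-102798851, 718 bp) held 27 tags (17.8 to 39.3) with a score of 78.6 at 12.8-fold over IgG and an FDR of 0.11%. It lay in the Hoxc10 intron, 1.56 kb downstream of a TSS, and shared 399 bp with the WT CD71+Ter119+ H3K27me3 peak there. No H3K27me3 peak was listed at Hoxc10 in the CD71+Ter119-/lo fraction in which this Mtf2 peak was called.

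The sequence at the Mtf2 summit is shown because it differs from a CpG-rich target. The 150 bases nearest the summit held 1 CpG, in capitals, and their GC content was 35.3%. Over 1 kb centred on the summit the CpG ratio was 0.366, beside a median of 0.254 over that Mtf2 list.
Hoxc10 intronic Mtf2 peak, chr15:102798702-102798851: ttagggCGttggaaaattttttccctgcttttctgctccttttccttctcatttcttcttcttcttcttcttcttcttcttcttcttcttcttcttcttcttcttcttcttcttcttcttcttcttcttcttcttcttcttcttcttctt
The summit lay within a perfect repeat of a 3-base unit that ran for 96 bases, or 13.4% of the peak. Over the 37 WT CD71+Ter119+ H3K27me3 peaks the longest such repeat (units of 2 to 6 bases, at least 3 copies) had a median of 12 bases and a maximum of 54. Unique tags made up 34.6% of the tags of that Mtf2 library, against 83.4% in the WT CD71+Ter119+ H3K27me3 library. The part of the repeat in this peak was not tested.

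The highest Hox scores fell on CpG-rich DNA. Of the 37 WT CD71+Ter119+ peaks 22 were island-like, beside 47.6% of all 4490 peaks of the list. These 22 had a median of 39 tags and a score of 78.3, against 24 tags and 54.0 in the 15 others. All 7 peaks with a score of at least 100 were island-like, with CpG ratios between 0.779 and 1.07. The reverse was not so, since the island-like peaks reached down to 22 tags. Whether score and CpG content move together over the whole list was not tested, so this is not shown to be particular to Hox peaks. Read over 1 kb centred on the summits, the CpG ratio ran from 0.127, between Hoxa11 and Hoxa13, to 1.07 on Hoxd8. Longer peaks hold more tags, with median lengths of 1097 and 727 bp for island-like and other peaks, so tags and length move together.

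**Figure D5:**
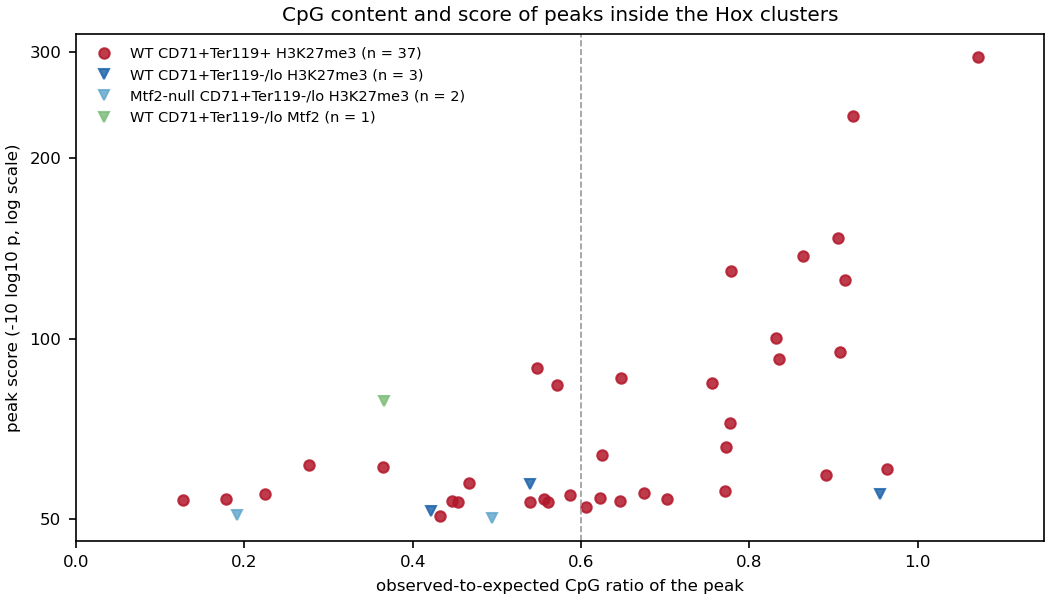
Observed-to-expected CpG ratio (horizontal) and score on a log scale (vertical) of the peaks inside the Hox clusters, 37 from WT CD71+Ter119+ H3K27me3 (circles) and 6 from 3 other lists (triangles). The ratio was read over 1 kb centred on each summit. The dashed line marks a ratio of 0.6, and every circle above a score of 100 lies to its right, between 0.779 and 1.07.

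Marking of Hox genes was not limited to island-like promoters. Read over 1 kb centred on the most upstream TSS, 18 of 38 Hox promoters were island-like, and their median CpG ratio was 0.625 against 0.550 over all genes. Of these 18, 15 had a WT CD71+Ter119+ peak, beside 18.2% of all genes with such promoters. Of the 20 others 15 had one too, beside 6.25% of all genes with other promoters. Members with a peak had a median ratio of 0.639 and the 8 without had 0.442. HoxB promoters had the lowest median ratio of the clusters, 0.440 with 2 of 10 island-like, and HoxD the highest, 0.717 with 5 of 9. HoxA and HoxC lay between, at 0.635 with 6 of 10 and 0.651 with 5 of 9. With the TSS of highest ratio in place of the most upstream one, the medians of members with and without a peak were 0.723 and 0.634.

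The clusters also contain microRNA genes, which share the regulation of their neighbours and target Hox transcripts. Mir196b (chr6:52180080-52180164) lay inside the WT CD71+Ter119+ H3K27me3 peak of Hoxa9. Mir10b lay 0.948 kb, Mir196a-2 1.96 kb and Mir196a-1 5.93 kb from the nearest such peak, and Mir10a, in HoxB, 30.7 kb. None of the 5 lay inside a peak of another list. Their mature forms (RefSeq, GRCm38.p6) are shown with the seed, bases 2 to 8, in capitals, because each pair shares its seed across clusters that differ in marking.
miR-196b-5p: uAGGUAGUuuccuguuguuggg
miR-196a-5p: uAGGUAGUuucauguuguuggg
miR-10b-5p: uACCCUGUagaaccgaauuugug
miR-10a-5p: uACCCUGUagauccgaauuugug
Thus of the miR-10 pair the HoxD copy lay within 1 kb of a peak and the HoxB copy far from one.

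Some partners and relatives of the Hox genes were marked too, where 11.5% of all genes had a WT CD71+Ter119+ H3K27me3 peak. Of 9 genes for TALE homeodomain cofactors, which bind DNA together with Hox proteins, 3 had a WT CD71+Ter119+ H3K27me3 peak: Meis1 (22 tags), Meis2 (31 tags) and Pknox2 (44 tags). None of the 9 had a peak in any other list. Of 8 Evx and ParaHox genes, the homeobox genes closest to the clusters, 4 had one: Evx2, Cdx1, Gsx1 and Gsx2. Gsx2 had 108 tags over 2755 bp with a score of 262. Cdx2, a regulator of posterior Hox genes, had 2 peaks in the WT CD71+Ter119-/lo H3K27me3 list instead, with 16 and 22 tags. Cdx4 had a peak of 23 tags in the WT CD71+Ter119-/lo Mtf2 list, and none of the 8 had an Mtf2-null peak. For comparison, 0 of 13 genes of the erythroid programme had an H3K27me3 peak in any of the 4 lists. Among the 13 were Gata1, Klf1, Tal1 and the globin genes. In these lists 11.5%, 1.64%, 3.3% and 1.28% of all genes had one, so few or none of 13 genes would be marked at those shares. Kit, also among the 13, had peaks of 86 and 42 tags in the WT CD71+Ter119-/lo Mtf2 list, which marked 8.46% of all genes.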

How the data were processed

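ChIP-seq peak lists of 6 libraries were used, each called against an IgG library, 4 in all, and WT H3K27me3 and Mtf2 of a fraction shared theirs. According to the submitters' processing notes, reads were aligned with Bowtie2 2.2.3 to mm9 and peaks were called with MACS 1.3.7. The tag counts that the authors deposited are numbers of reads per peak, without scaling to depth. Also deposited are a fold value, the ratio of ChIP over the IgG level nearby, a score, −10 log10 p, and an FDR in percent. Peaks lay within the chromosome ends of NCBIM37 (mm9), whose sequence and GENCODE M1 annotation were used, with 1-based coordinates and genes taken by symbol.

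A peak near a TSS overlapped the 5 kb on either side by at least 1 base. Tag sums carry exact 95% Poisson intervals, which cover counting error only, since tags amplified by PCR are not independent. Values are given in full for members whose TSS lay in a WT CD71+Ter119+ H3K27me3 peak, for the highest-scoring and longest peaks of each cluster and for members with an Mtf2 or Mtf2-null peak, and others mostly by counts. The members, lists and rules were chosen with earlier results of these data known. The overlap step was tested on simulated data and gave the brute-force answer for 2000 of 2000 windows. Alternatives were other windows, TSS, paralogue groupings, overlaps and peak thresholds. Tables were handled with pandas 2.3.3 and numpy 2.4.6 in Python 3.11.15, intervals computed with scipy 1.17.1 and figures drawn with matplotlib 3.10.9. Of the Hox genes 38 are reported, and the rest is not reported here. IgG libraries and read densities were not analysed here.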

Additional observations from a re-analysis of the deposited data

Results flagged for a closer look

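At 2 places the number of listed peaks differed between genotypes with opposite signs in the 2 fractions, and the difference was not tested, with 1 library per condition. In HoxC the number of H3K27me3 peaks from WT to Mtf2-null fell by 9 in CD71+Ter119+ cells, from 9 to 0, and rose by 1 in CD71+Ter119-/lo cells, from 0 to 1. Within 5 kb of a TSS of Hoxd11 it fell by 1 in CD71+Ter119+ cells, from 1 to 0, and rose by 1 in CD71+Ter119-/lo cells, from 0 to 1. The peaks of the Mtf2-null CD71+Ter119-/lo list that make up both rises held 27 and 25 tags with an FDR of 100%, and they lay outside the WT peaks. Among all genes 1.1% had a peak in Mtf2-null alone in that fraction, so a rise of 1 peak is near the background and is given as a value, not as a difference between the fractions.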

How the results depend on the processing

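Of 174 alternative values for 40 results, 93 lay within 1.5 times the value given or, for shares of members, within its wide 95% binomial interval, and 81 did not. Some of the 93 were counts of 0 that stayed at 0. A turn of direction could be recorded only for the tags of HoxA, HoxB and HoxC as shares of HoxD tags, and none of these turned. The H3K27me3 counts of WT CD71+Ter119+ cells depended on the peak threshold. With scores of 100 or more, with FDR values up to 5%, and with the 1407 highest-scoring peaks of each list, members with a peak, and members with a WT and no Mtf2-null peak, numbered 7, 6 and 7. HoxA then had 2 peaks, 2.28 kb and 101 tags under each, HoxB and HoxC had 0 peaks, 0 kb and 0 tags, and HoxD had 5, 4 and 5 peaks over 7.59, 6.49 and 7.59 kb with 407, 365 and 407 tags. Anterior members with a peak came to 28.6%, 14.3% and 28.6%, central members to 6.67% each and posterior members to 25% each. The order of anterior and posterior members therefore turned at a score of 100 and with equal numbers of peaks. With a 1 kb window 21 members had a peak, with 42.9% of anterior, 46.7% of central and 68.8% of posterior members. Per kb of peak, HoxB and HoxC tags were 0.800 and 0.766 of the HoxD value.

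In CD71+Ter119-/lo cells, members with a WT H3K27me3 peak numbered 0 under each threshold, 5 in 10 kb and 1 with the most upstream TSS. Members with an Mtf2-null peak numbered 0 in 1 kb, 1 in 2 kb, 5 in 10 kb and 0 at a score of 100 or an FDR of 5%. Members with a WT and no Mtf2-null peak numbered 4 in 10 kb, 0 under each threshold and 0 with no Mtf2-null peak in the whole cluster. Members with an Mtf2 peak numbered 2 in 10 kb and 0 at a score of 100 or with equal numbers of peaks. Peaks in the clusters numbered 0 in the WT list under each threshold, 0 in the Mtf2-null list at a score of 100 or an FDR of 5%, and 0 in the Mtf2 list at a score of 100 or with equal numbers. No WT CD71+Ter119+ peak was overlapped over 50% of its length, so the counts for the WT CD71+Ter119-/lo H3K27me3 and Mtf2 lists were 0 and 0. The TSS of highest CpG ratio was chosen after the data were seen.

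For the Mtf2-null CD71+Ter119+ H3K27me3 and WT CD71+Ter119+ Mtf2 lists, a count of 0 is fixed under alternatives that remove peaks or narrow windows. Windows of 10 kb and clusters extended by 10 kb, which can add peaks, gave 0 as well. Depth differed between the CD71+Ter119-/lo and CD71+Ter119+ lists, as did base composition, and the cause of the shifts was not tested. No paired analysis was possible because each condition has 1 library.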

Other observations

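Among the 6 Hox peaks outside the WT CD71+Ter119+ H3K27me3 list, 3 held long simple repeats. The longest perfect repeat of a unit of 2 to 6 bases ran for 96 bases in the Hoxc10 peak of the WT CD71+Ter119-/lo Mtf2 list. It ran for 81 bases in the Hoxd11 peak and 48 bases in the peak upstream of Hoxc8, both of the Mtf2-null CD71+Ter119-/lo H3K27me3 list. In the 3 WT CD71+Ter119-/lo H3K27me3 peaks it ran for 12, 6 and 9 bases, and over the 37 WT CD71+Ter119+ peaks it had a median of 12 and a maximum of 54. The summit fell inside the repeat at Hoxc10 and outside it at Hoxd11 and Hoxc8. It also fell inside the repeat of 12 bases in the WT CD71+Ter119-/lo H3K27me3 peak at Hoxd13. Whether these repeats bear on how the peaks were called was not tested.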
